A study of Mus musculus with 92 samples.

Results

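Transcripts of the cytosolic ribosomal proteins were followed across 12 groups of arrays from G93A-SOD1 mice and their wild type littermates. The genes were taken by symbol: Rpl or Rps followed by a number, with or without letters at the end, together with Rplp0, Rplp1, Rplp2 and Rpsa, and without the Rps6k kinases. By this rule 49 of the 15967 genes annotated on the array were members, read by 65 of 24613 probes. They comprised 32 proteins of the large subunit, 16 of the small subunit and the stalk protein Rplp0. Each gene was represented by its brightest probe, and 11 genes had more than 1 probe. Rpl3, Rps6, Rplp1 and Rplp2 were not among the annotated probes and were not analysed here.

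The G93A-SOD1 mice belonged to the strain labelled B6.Cg-Tg(G93A-SOD1)1Gur/J, which carries a mutant human superoxide dismutase 1 transgene under the human promoter and develops motor neuron loss. The wild type littermates carried the same strain label and were labelled wild type by genotype. Left tibialis anterior muscle, lumbar spinal cord and whole blood were profiled on Illumina bead arrays in G93A-SOD1 and wild type mice of 100 days, and in G93A-SOD1 and wild type mice of 70 days. Groups held 8 arrays, except for 7 arrays of G93A-SOD1 muscle at 100 days and 7 of each wild type group at 100 days, which gave 92 arrays.

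Ribosomal proteins and ribosomal RNA form the small subunit, which reads the messenger RNA, and the large subunit, which joins amino acids. Messenger RNAs of ribosomal proteins usually begin with an uninterrupted run of C and T bases at the transcription start, through which the growth kinase mTOR and the protein Larp1 adjust their translation. Skeletal muscle also has a paralogue of its own, Rpl3l, which can take the place of Rpl3 in the large subunit.

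Promoters of the members on which the muscle results turn are given first. Sequences are from RefSeq, assembly GRCm38.p6, on the strand of the gene, and run 5′ to 3′ from 60 bases before the first listed start to 15 bases from it. Capitals mark a C and T run of at least 8 bases near the start, the hexamer ACTTCC or its reverse complement GGAAGT, and the pattern CANNTG.
Rpl41 (chr10:128549154-128549228, minus strand): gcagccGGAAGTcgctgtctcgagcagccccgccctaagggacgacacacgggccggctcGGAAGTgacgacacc
Rpl38 (chr11:114668520-114668594, plus strand): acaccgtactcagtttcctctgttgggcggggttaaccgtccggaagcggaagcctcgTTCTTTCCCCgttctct
Rpl36a (chrX:134585594-134585668, plus strand): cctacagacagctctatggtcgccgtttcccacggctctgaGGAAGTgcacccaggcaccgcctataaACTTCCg
Rplp0 (chr5:115559407-115559481, plus strand): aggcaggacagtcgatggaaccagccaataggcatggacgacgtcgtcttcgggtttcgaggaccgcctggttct
Rpl13a (chr7:45128731-45128805, minus strand): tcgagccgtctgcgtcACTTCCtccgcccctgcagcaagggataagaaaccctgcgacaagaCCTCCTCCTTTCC
Rpl27a (chr7:109519135-109519209, plus strand): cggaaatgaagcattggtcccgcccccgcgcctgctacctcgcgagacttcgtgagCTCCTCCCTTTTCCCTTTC
Rpl3l (chr17:24727766-24727840, plus strand): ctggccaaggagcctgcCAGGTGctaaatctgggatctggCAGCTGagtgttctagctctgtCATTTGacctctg

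In the shown window Rpl3l held 3 CANNTG matches and no ACTTCC match on either strand. Rpl41 and Rpl36a held 2 ACTTCC matches each, and Rpl13a held 1. The C and T run was 10 bases long at Rpl38. It was at least 19 bases long at Rpl27a and at least 13 at Rpl13a, where it reached the edge of the searched window. The run was 5 bases long at Rplp0, at Rpl36a and at Rpl3l, and 3 at Rpl41. Each is the longest run within 15 bases of the first listed start and need not lie at the start itself. It lay at positions -14 to -10 for Rplp0, and at 10 to 14 for Rpl36a and Rpl3l. Whether the transcripts begin with such a run was not examined. A match describes letters in the window only.

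Of the 49 members 39 had a promoter in the RefSeq table, which covered 27025 genes. In the 15 bases on each side of the start, 16 of the 39 (41%) had a C and T run of at least 8 bases, against 11.9% of all promoters. In the 250 bases before the start ACTTCC occurred on either strand in 43.6% of the members and 20% of all promoters. CANNTG, also on both strands, occurred in 43.6% of the members and 66% of all promoters. TATAAA, on the strand of the gene, occurred in 2.56% of the members and 8.12% of all promoters.

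Spinal cord arrays detected 5212 to 13428 probes, muscle arrays 8512 to 11577 and blood arrays 6809 to 9691. All 10 measured fast fibre markers were tested in muscle, where 6 of 11 markers of spinal cord cells were detected on no array. In spinal cord 9 of 11 markers of its own cells passed the detection filter, and in blood all 8 T cell and all 8 platelet markers did. Of the spinal cord arrays 2 were dim (replicate 1 of G93A-SOD1 at 70 days and replicate 5 of wild type at 100 days). Another 3 carried muscle transcripts (replicate 8 of G93A-SOD1 at 100 days, and replicates 3 and 5 of wild type at 70 days), and 1 blood array (replicate 6 of wild type at 70 days) had a raised background. For the members with the smallest p-values in cord and blood, an estimate that moved by over 1.5 times without these arrays is given with a moved value. In whole tissue, fewer cells of a type and less RNA in each cell cannot be told apart. Many ribosomal protein genes have near-identical processed copies in the genome, and the probes were not examined for matches to such copies.

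Genes were tested in a tissue if at least 7 of its arrays gave a detection p-value under 0.05. By this filter 43 members were tested in muscle, 44 in spinal cord and 44 in blood, with 43 in all 3 tissues. Levels are on the log2 scale after background correction and quantile normalization within the tissue. Every adjusted p is from limma with Benjamini-Hochberg adjustment over all genes of the tissue, called at 0.05.

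In muscle at 100 days 4 members rose in G93A-SOD1 mice and none fell, 9.30% of the 43 tested. Over all 9089 genes and unassigned probes 10.8% passed, with 6.05% higher and 4.75% lower, so that the share of members called was near the background. The 4 were Rpl41, Rpl38 and Rpl36a of the large subunit, and Rplp0. Smaller positive differences ran through most members: 39 of 43 had a log2 fold change above 0, against 48.5% of all genes. The median log2 fold change was 0.16 for the members and -0.01 for all genes. At an unadjusted p under 0.05 the shares were 34.9% of the members and 28.0% of all genes.

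Rpl41, the smallest ribosomal protein and a very basic one, had a log2 level of 14.23, 14.70 and 14.80 (lowest, median, highest) in G93A-SOD1 muscle at 100 days, against 14.10, 14.13 and 14.35 in wild type muscle. The groups overlapped at their edges, and the difference was 0.40 (SE 0.11, limma adjusted p = 0.0225), a 1.32-fold rise. Rpl38, a small protein whose loss in mice alters the body plan through translation of Hox messenger RNAs, had levels of 8.84, 9.23 and 9.44 in G93A-SOD1 muscle, against 8.42, 8.57 and 8.80 in wild type muscle. Every G93A-SOD1 array lay above every wild type array, with a difference of 0.55 (SE 0.15, limma adjusted p = 0.0229), or 1.46-fold. The groups did not overlap for Rpl36a either, a large subunit protein near the exit site of transfer RNA. Its levels were 12.37, 12.53 and 12.74 in G93A-SOD1 muscle, against 12.03, 12.11 and 12.21 in wild type muscle (difference 0.42, SE 0.13, limma adjusted p = 0.0349). Rplp0 anchors the stalk that recruits elongation factors. It had levels of 7.67, 8.23 and 8.70 in G93A-SOD1 muscle, against 7.44, 7.55 and 7.96 in wild type muscle, which overlapped (difference 0.57, SE 0.17, limma adjusted p = 0.0362).

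**Figure D1:**
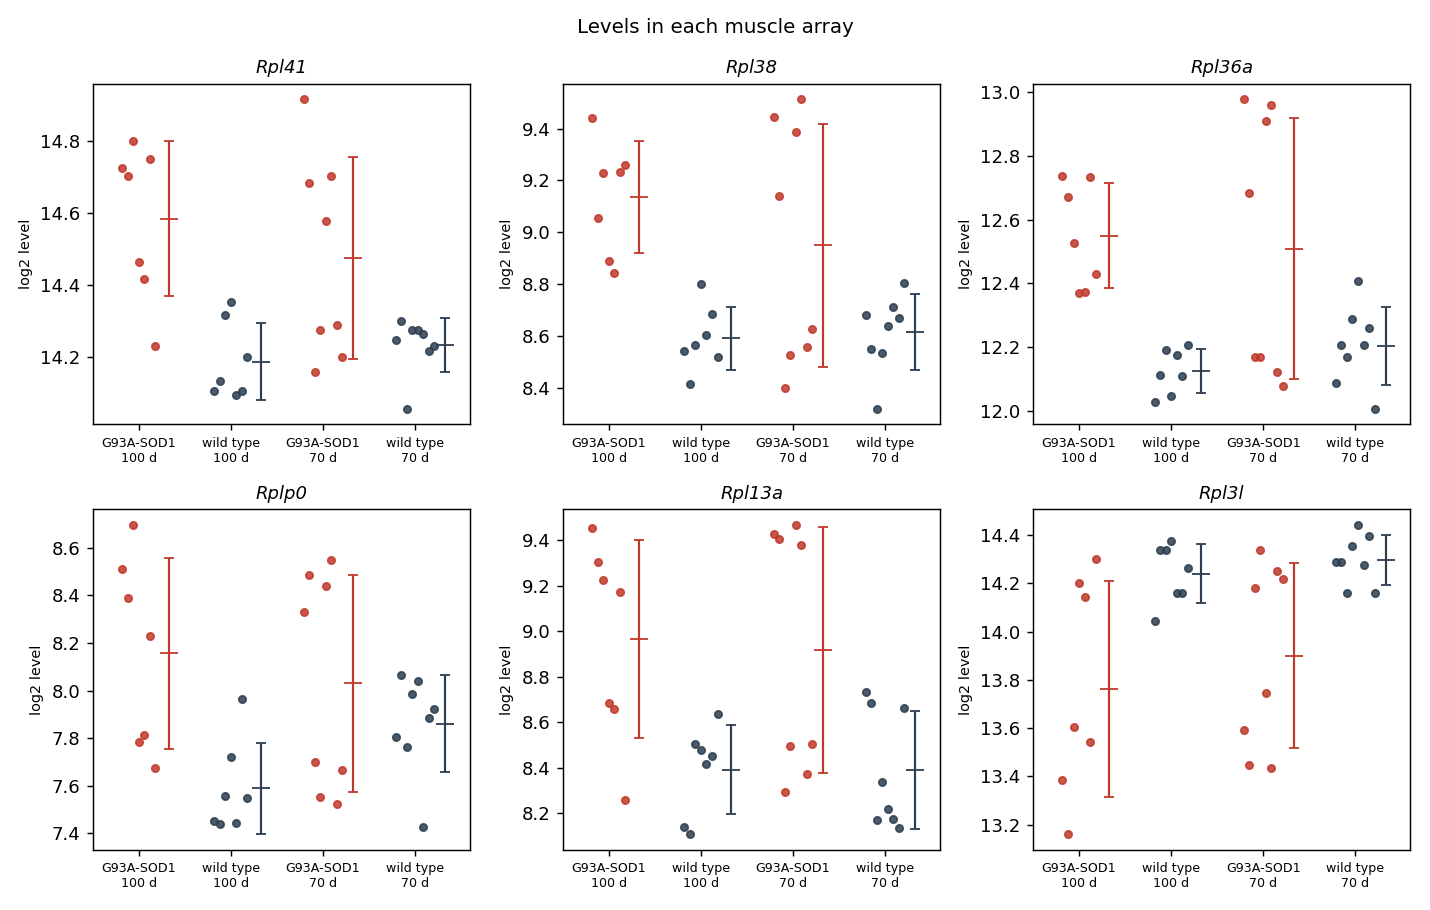
Log2 levels in muscle, 1 point an array, of the 4 members called at 100 days and of Rpl13a and Rpl3l, with G93A-SOD1 and wild type at 100 days followed by both genotypes at 70 days and bars for mean and SD. For Rpl38 and Rpl36a all 100-day G93A-SOD1 points lie above the wild type points, and for Rpl3l the G93A-SOD1 points reach down to 13.16 while no wild type point at 100 days is below 14.04.

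Rpl13a, Rpl22 and Rpl27a had estimates above that of Rpl41 without passing. Rpl13a, which also belongs to an interferon-responsive complex that represses translation of certain messenger RNAs, had levels of 8.26, 9.17 and 9.46 in G93A-SOD1 muscle, against 8.11, 8.45 and 8.64 in wild type muscle (difference 0.57, SE 0.20, limma adjusted p = 0.0574). Its other probe gave 0.56 in a fit over all probes. Rpl22, an RNA-binding protein that mice can live without, had levels of 9.62, 9.82 and 10.28, against 8.93, 9.32 and 9.79 in wild type muscle (difference 0.55, limma adjusted p = 0.0625). Rpl27a had a difference of 0.46 (limma adjusted p = 0.0951) and Rpl23 one of 0.29 (limma adjusted p = 0.0556). Dimmer probes gave 0.15 for Rpl27a (limma adjusted p = 0.555 over all probes) and 0.21 for Rpl23 (limma adjusted p = 0.404 over all probes). Rpl5 and Rpl11, which with 5S ribosomal RNA bind the p53 regulator Mdm2, gave 0.05 (limma adjusted p = 0.861) and 0.24 (limma adjusted p = 0.0994). Rps27 and its p53-induced paralogue Rps27l gave 0.06 and 0.05, both smaller than their standard errors of 0.09 and 0.11. By subunit, 26 of 29 large subunit members and 12 of 13 small subunit members were above 0, with medians of 0.15 and 0.16.

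Rpl3l, the paralogue of striated muscle, had the lowest fold change of the 43. Its levels were 13.16, 13.60 and 14.30 in G93A-SOD1 muscle at 100 days, against 14.04, 14.26 and 14.37 in wild type muscle. The difference was -0.48 (SE 0.16) and did not pass (limma adjusted p = 0.0509), although it passed under 4 of 10 alternative settings. The other members below 0 were Rps15a (-0.20), Rpl4 (-0.06) and Rpl14 (-0.03).

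**Figure D2:**
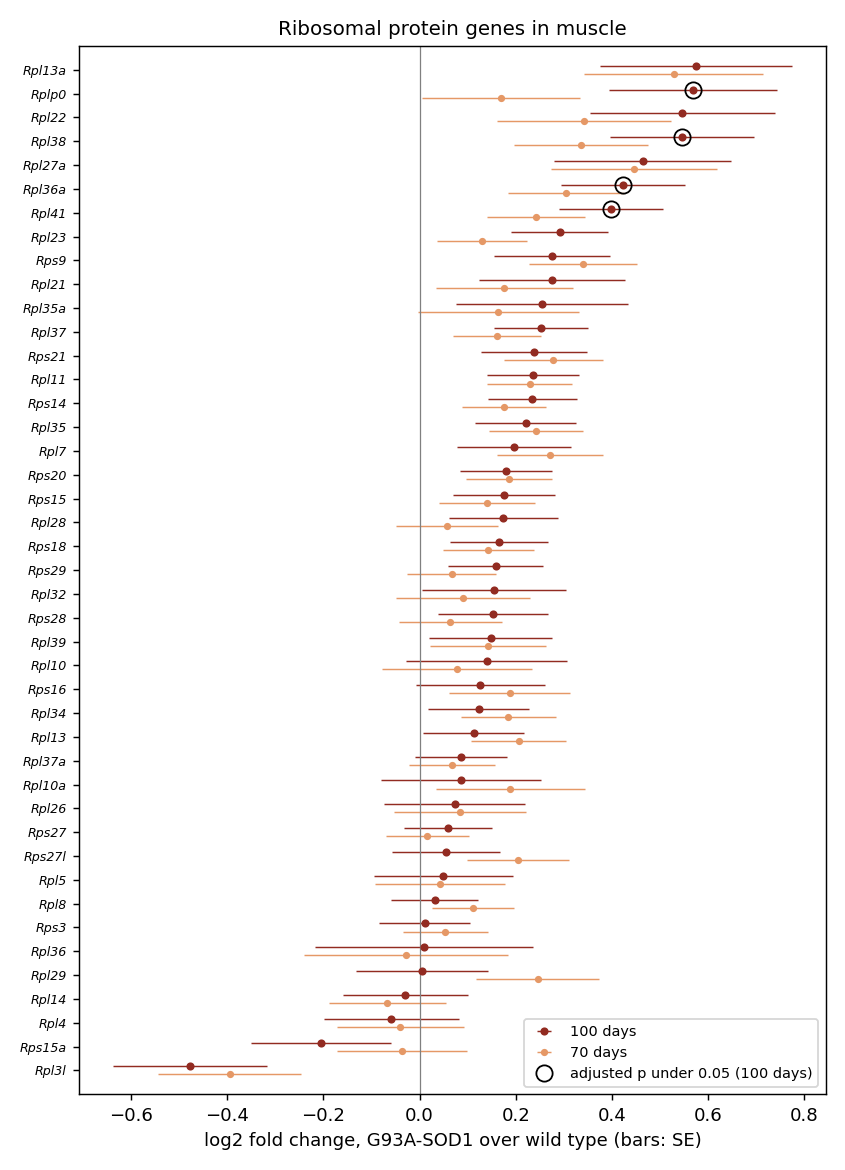
Log2 fold change, G93A-SOD1 over wild type, of the 43 members tested in muscle at 100 days (dark) and at 70 days (light), with standard errors; circles mark the 4 members with an adjusted p under 0.05 at 100 days. Most points lie to the right of 0 at both ages, and Rpl3l is at the far left with -0.48 at 100 days and -0.39 at 70 days.

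The count of 4 depended on single arrays and on the normalization. No member passed after median centring, or without replicate 1 or replicate 6 of G93A-SOD1 at 100 days, and 1 passed without replicate 2 or replicate 3. The count was 7, 9 and 8 without replicates 4, 5 and 7 of that group, 7 without replicate 6 of G93A-SOD1 at 70 days, and 2 without replicate 1 or replicate 2 of wild type at 100 days. The calls over all genes moved too. After median centring 0.473% of all genes passed, and 330 to 1461 did in the fits that each left out 1 array. Of 30 fits that each left out 1 array, Rpl38 passed in 28, Rpl41 in 26, Rpl36a in 23, Rplp0 in 21 and Rpl3l in 9. A dimmer probe of Rplp0, detected on 8 muscle arrays, gave 0.20 (limma adjusted p = 0.694 over all probes). All 5 probes of Rps9 were above 0, the brightest at 0.28.

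Values of single arrays showed that the G93A-SOD1 muscles differed from each other. The mean over the 42 members other than Rpl3l, as log2 level minus its wild type mean, was 0.27, 0.45, 0.41, 0.06, 0.04, 0.23 and 0.08 in replicates 1 to 7 of G93A-SOD1 at 100 days, against -0.02 to 0.10 in wild type at 100 days. The same G93A-SOD1 arrays had Rpl3l levels of 13.38, 13.16, 13.60, 14.20, 14.14, 13.54 and 14.30. The 4 arrays with a member mean above all wild type arrays of that age were thus the 4 with Rpl3l below all of them. In linear signal, the 42 members together took 3.51 to 4.64% of all signal in G93A-SOD1 muscle at 100 days, against 3.32 to 3.59% in wild type muscle.

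At 70 days the member means were 0.31, 0.23, -0.10, -0.05, 0.34, 0.28, 0.04 and 0.03 in replicates 1 to 8 of G93A-SOD1 muscle, against -0.17 to 0.10 in wild type muscle. Rpl3l was at 13.59, 13.45, 14.18, 14.34, 13.75, 13.44, 14.25 and 14.22 in the same order, against 14.16 to 14.44 in wild type muscle. Again the 4 arrays with member means above the wild type range were those with Rpl3l below it. No correlation is given, since the arrays fall apart into clusters.

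**Figure D3:**
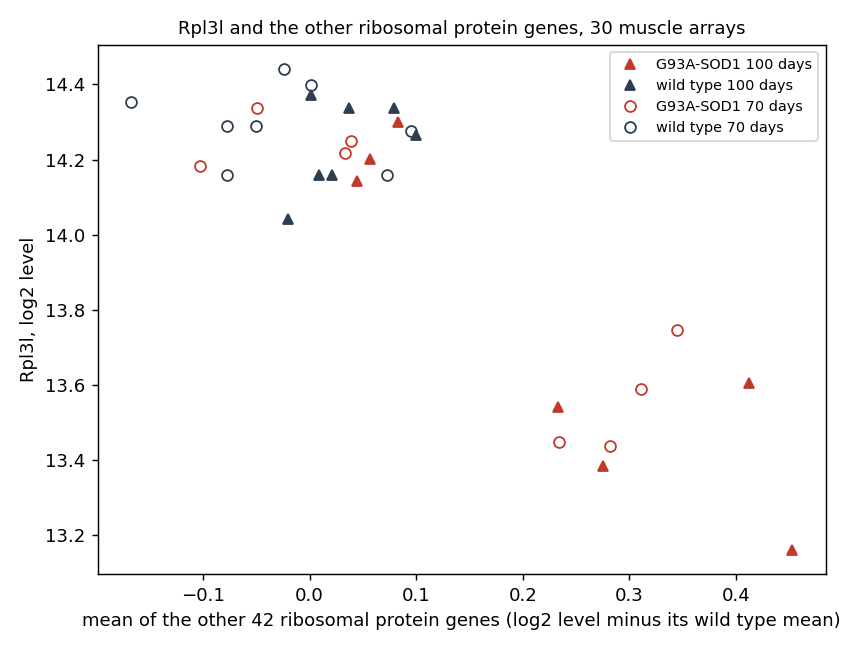
Each point is 1 of 30 muscle arrays, with the log2 level of Rpl3l on one axis and the mean of the other 42 members, relative to wild type, on the other; colours give genotype and age. Wild type arrays gather above an Rpl3l level of 14, while 4 G93A-SOD1 arrays of each age lie apart, with Rpl3l between 13.16 and 13.75 and member means from 0.23 to 0.45.

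Transcripts of denervated muscle varied between the same arrays. Over 9 measured genes of a denervation response list, 7 of which rose at 100 days, the mean deviation from wild type was 2.70, 2.59, 2.49, 1.37, 0.79, 2.53 and 1.10 in replicates 1 to 7 of G93A-SOD1 at 100 days, against -0.19 to 0.13 in wild type muscle of that age. At 70 days it was 2.30, 2.66, 0.41, 0.19, 2.57, 2.64, 0.10 and 0.39 in replicates 1 to 8 of G93A-SOD1, against -0.11 to 0.24 in wild type. Slow fibre markers, all 7 measured, had mean deviations from 0.04 to 2.94 in G93A-SOD1 muscle at 100 days, against -1.69 to 0.84 in wild type muscle. Examples that rose at 100 days were Gadd45a, a stress gene induced by denervation (difference 2.74), and Tnni1, the slow fibre troponin I (difference 3.03). The fast fibre myosin Myh4 fell by 1.71. The part of fibre type and denervation in the differences of the ribosomal proteins was not tested.

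Markers of other cells moved too. At 100 days 9 of 10 measured macrophage markers were above 0 in G93A-SOD1 muscle and 2 passed, Aif1 and Cx3cr1. Their mean deviation was 0.15 to 1.05 in G93A-SOD1 muscle, against -0.25 to 0.37 in wild type muscle, and they took 0.0137 to 0.0345% of the signal, against 0.00926 to 0.0192%. Itgam was detected on no muscle array. Of 8 T cell genes on the array none passed the detection filter in muscle, and 7 were detected on no array. None of the 7 fibroblast markers passed. Of 3 measured neutrophil markers S100a8 rose by 2.55 (limma adjusted p = 0.0406). Blnk, the 1 measured gene of the B cell list, rose by 1.47 (limma adjusted p = 0.0260). Of 2 measured genes of the spinal cord cell list Mbp fell by 1.68 (limma adjusted p = 0.0109). Which cells of the muscle this transcript came from was not examined. The part of these cells in the differences was not tested.

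Other genes of the translation machinery are set beside the ribosomal proteins as counts, to be read against the 6.05% of all genes called higher and 4.75% called lower. At 100 days in muscle 1 of 8 elongation factors rose: Eef1a1, which delivers aminoacyl transfer RNA, at 13.10 in G93A-SOD1 muscle against 11.80 in wild type muscle (difference 1.31, SE 0.33, limma adjusted p = 0.0185). Of 29 initiation factors 4 rose, with Eif4a1, the helicase that opens the 5′ end of messenger RNA, at 0.91 and Eif6, which keeps free large subunits apart from small ones, at 0.45. Eif1ax, which helps the small subunit scan, fell by 0.54, while Eif1a, also among the 4 that rose, was at 0.40. Of 36 ribosome biogenesis genes 4 rose: Sbds (0.51), which releases Eif6 from new large subunits, Fbl (0.46), which methylates ribosomal RNA, Nhp2 (0.41), a component of pseudouridine-forming particles, and Brix1 (0.32), an assembly factor of the large subunit.

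Of 10 mTOR and growth control genes 2 fell, where 4.75% of all genes did: Eif4ebp2 by 0.93 and Maf1 by 0.55. Eif4ebp2 holds back cap-dependent initiation, and Maf1 holds back RNA polymerase III. None of 68 mitochondrial ribosomal proteins passed, and 21 of 68 were above 0, with a median of -0.06 against -0.01 for all genes. None of these lists had a called gene in muscle at 70 days.

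In muscle at 70 days no member passed by limma (0 of 43), where 0.0110% of all genes did. Of the members, 38 of 43 were above 0, against 46.6% of all genes, with a median of 0.16 against -0.02. At an unadjusted p under 0.05 there were 13 members, or 30.2%, against 15.4% of all genes. The smallest p-values were those of Rps9, Rpl13a and Rps21. Rps9, a small subunit protein near the entry of the messenger RNA, had levels of 12.88, 13.14 and 13.80 in G93A-SOD1 muscle, against 12.83, 12.88 and 13.11 in wild type muscle (difference 0.34, SE 0.11, limma adjusted p = 0.170). Rpl13a had 8.29, 8.94 and 9.47, against 8.14, 8.28 and 8.73 in wild type muscle (difference 0.53, SE 0.19, limma adjusted p = 0.188), so its estimates at both ages were close. Rps21 gave 0.28 (limma adjusted p = 0.193) and Rpl3l gave -0.39 (SE 0.15, limma adjusted p = 0.205). The 4 members called at 100 days had estimates of 0.24 for Rpl41, 0.34 for Rpl38, 0.30 for Rpl36a and 0.17 for Rplp0 at 70 days, and all 4 overlapped with wild type.

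The genotype effect was not shown to differ between the ages. In the interaction no member passed by limma and none had an unadjusted p under 0.05, against 0% and 2.53% of all genes. Above 0 were 26 of 43 members, against 52.7% of all genes. Rplp0 had the smallest p, with 0.40 (SE 0.24, limma adjusted p = 0.998), followed by Rpl29 (-0.24) and Rpl23 (0.16).

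Between the ages within a genotype no member passed in muscle by limma (0% of all genes in both genotypes), with 3 members in G93A-SOD1 and 4 in wild type at an unadjusted p under 0.05, where 7.38% and 11.8% of all genes were. In G93A-SOD1 muscle 34 of 43 members were above 0 (43.6% of all genes), and in wild type muscle 26 of 43 (40.3% of all genes). Rpl29, a small basic protein of the large subunit, had levels of 8.85, 8.92 and 9.15 at 100 days, against 8.02, 8.44 and 8.996 at 70 days in wild type muscle (difference 0.54, SE 0.13, limma adjusted p = 0.142). The corresponding difference in G93A-SOD1 muscle was 0.30. Rpl7, an RNA-binding protein of the large subunit, did not overlap between the ages in wild type muscle. It had 11.71, 11.82 and 12.12 at 100 days, against 10.99, 11.60 and 11.71 at 70 days (difference 0.37, limma adjusted p = 0.191), and a difference of 0.30 in G93A-SOD1 muscle. Rps3, which lies beside that entry in the small subunit, gave 0.23 in wild type and 0.19 in G93A-SOD1 muscle.

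**Figure D4:**
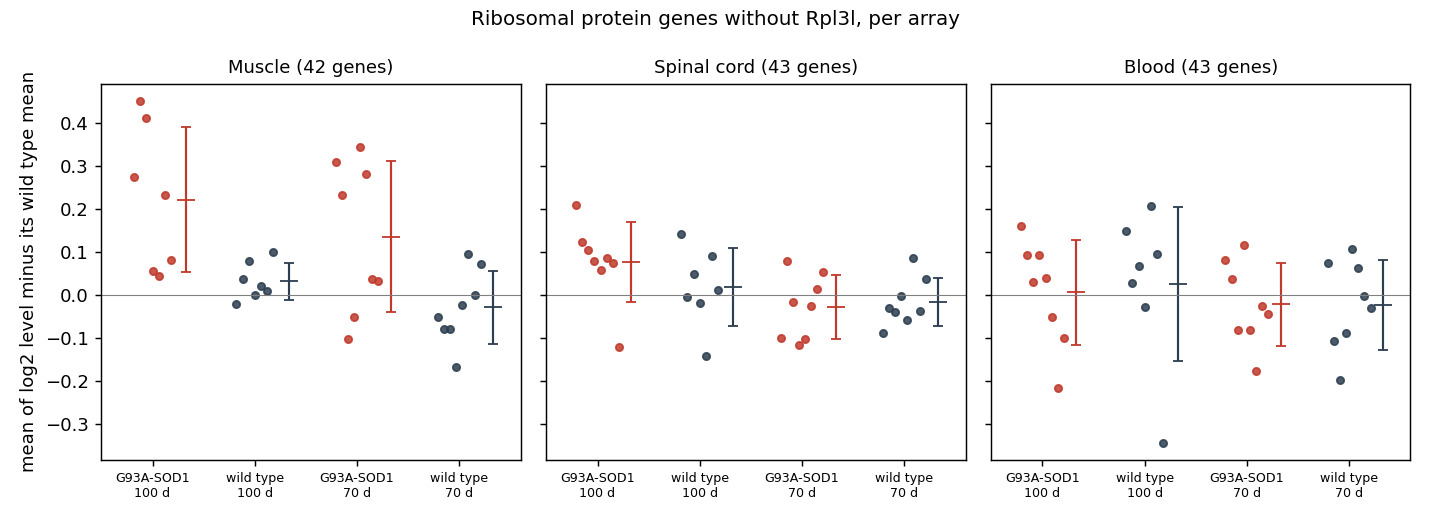
Mean over the members other than Rpl3l of the log2 level minus its wild type mean, 1 point an array, in muscle (42 genes), spinal cord (43 genes) and blood (43 genes), with bars for mean and SD; each panel shows G93A-SOD1 and wild type at 100 days, then both at 70 days. In muscle 4 G93A-SOD1 arrays of each age lie above the wild type points, while in blood the lowest array is a wild type one at 100 days with -0.34.

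In spinal cord the ribosomal proteins showed no called difference between the genotypes at either age. At 100 days 0 of 44 members passed by limma, against 0.0185% of all genes, and 1 had an unadjusted p under 0.05 (3.24% of all genes). Of the 44, 34 were above 0, against 54.8% of all genes, with a median of 0.08 against 0.02. Rpl39, which lines the exit tunnel of the new protein, had levels of 12.42, 12.92 and 12.96 in G93A-SOD1 cord, against 12.09, 12.61 and 12.87 in wild type cord (difference 0.22, SE 0.11, limma adjusted p = 1.00). Rps27l and Rpl32 followed with 0.18 and 0.23. Without the 2 dim arrays Rpl39 was at 0.14 and Rpl32 at 0.13. All 12 measured microglia and macrophage markers were above 0 at this age, with a median of 0.70, and none passed; their part was not tested.

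At 70 days 0 of 44 members passed by limma, against 0.0278% of all genes, and 21 of 44 were above 0 (44.5% of all genes), with a median of -0.003. Rpl3l was the 1 member with an unadjusted p under 0.05 (5.01% of all genes). Its levels were 5.98, 6.68 and 8.48 in G93A-SOD1 cord, against 6.27, 7.30 and 12.25 in wild type cord (difference -1.496, SE 0.71, limma adjusted p = 0.740). The wild type group held 2 arrays far above the others, replicates 3 and 5, with 12.003 and 12.25. These carried muscle transcripts, with mean deviations of 4.64 and 4.63 over the fast fibre list, against at most 0.22 on the arrays not listed as carrying muscle transcripts. Without the 3 arrays with muscle transcripts the difference was -0.22. Rps9 (0.14) and Rpl21 (-0.28) had the next smallest p-values. Rplp0 gave -0.39, with 4.97 on the dim G93A-SOD1 array and 6.93 or more on the other 7. Without the 2 dim arrays Rplp0 was at -0.10, Rpl21 at -0.07 and Rps9 at 0.09.

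In the cord interaction no member passed by limma (0% of all genes), 1 had an unadjusted p under 0.05 (4.04% of all genes), and 33 of 44 were above 0 (57.4% of all genes). The smallest p-values were those of Rps27l (0.29), Rps9 (-0.23) and Rps24 (0.50), with limma adjusted p = 0.803 for each. Without the 2 dim arrays Rps9 was at -0.10 and Rps24 at 0.27, and without the 3 arrays with muscle transcripts Rps27l was at 0.19. Rpl13a and Rpl11 gave 0.00 at 100 days and -0.05 and 0.07 at 70 days.

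At 100 against 70 days in G93A-SOD1 cord 37 of 44 members were above 0, against 59.0% of all genes, and 9 had an unadjusted p under 0.05 (20.5%, against 7.07%). No member passed by limma, as for all genes. All 14 small subunit members were above 0. Rps15, of the small subunit head, had levels of 11.21, 11.50 and 11.85 at 100 days, against 10.98, 11.11 and 11.55 at 70 days (difference 0.31, SE 0.11, limma adjusted p = 0.677). Rps20 gave 0.18 and Rpl36 gave 0.41, with the same adjusted p. Between the same groups all 12 microglia and macrophage markers were above 0 with a median of 0.41, and all 9 measured neutrophil markers with a median of 0.49. None of these markers passed, and their part was not tested. In wild type cord 31 of 44 were above 0 (49.9% of all genes) and 3 had an unadjusted p under 0.05 (2.68% of all genes). These were Rps9 (0.24, or 0.15 without the 5 dim and muscle transcript arrays), Rpl13 (0.26) and Rpl3l (-1.66, or -0.39 without the arrays with muscle transcripts), with limma adjusted p = 0.999 for each.

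In blood the members' fold changes were centred on 0. At 100 days 0 of 44 passed by limma, against 0.0595% of all genes, none had an unadjusted p under 0.05 (2.32% of all genes), and 23 were above 0 (54.2% of all genes). At 70 days the counts were the same, with 0.0714% of all genes called, 6.26% at an unadjusted p under 0.05 and 62.1% above 0. The median was 0.003 at both ages, against 0.02 for all genes at 100 days and 0.05 at 70 days.

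Rpl3l had the smallest p at 100 days, with levels of 5.93, 6.52 and 6.89 in G93A-SOD1 blood, against 6.53, 6.92 and 7.67 in wild type blood (difference -0.47, SE 0.23, limma adjusted p = 1.00). Rpl21 and Rpl38 gave 0.20 and -0.31. At 70 days the smallest p-values belonged to Rps24 (0.23), Rpl28 (0.12) and Rpl29 (-0.15), and in the interaction to Rps24 (-0.32), Rpl3l (-0.41) and Rpl28 (-0.16). Without the array of raised background Rpl29 was at -0.06 at 70 days. No member passed in the interaction or between the ages by limma (0% of all genes in each).

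Between the ages in blood, Rpl3l again stood at the low end of the p-values. In wild type blood it had 6.53, 6.92 and 7.67 at 100 days, against 5.02, 5.87 and 6.92 at 70 days (difference 1.05, SE 0.23, limma adjusted p = 0.175). In G93A-SOD1 blood the difference was 0.64 (limma adjusted p = 0.647). Without the blood array of raised background the wild type difference was 0.92. All 5 fast fibre markers measured in blood were above 0 at 100 against 70 days in both genotypes, with a median difference of 0.90 in G93A-SOD1 and 0.07 in wild type, and none passed. Their mean deviation had a group median of -0.06 at 100 days and -0.67 at 70 days in G93A-SOD1 blood, and of 0.24 and -0.02 in wild type blood. Replicates 1 and 7 of G93A-SOD1 at 100 days stood at 2.43 and 1.83. In wild type blood replicate 8 at 70 days stood at 1.72 and replicate 7 at 100 days at 0.90. The part of these transcripts in the Rpl3l values was not tested. Rpl8 (-0.27) and Rps14 (0.11) followed in G93A-SOD1 blood, and Rps24 (0.47) and Rpl29 (-0.20, or -0.10 without the array of raised background) in wild type blood.

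The largest differences among the ribosomal proteins lay between tissues. For these all 92 arrays were normalized together, 12008 genes and unassigned probes were tested, and wild type arrays of both ages were averaged with equal weight. Blood was globin-depleted and its RNA was isolated with another kit, so that tissue and preparation cannot be told apart.

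Blood stood above spinal cord for most members. By limma 35 of 44 members were higher and 5 lower in wild type blood, 90.9% of the members, where 84.2% of all genes passed, with 40.9% of all genes higher and 43.2% lower in blood. The median log2 difference was 0.98 for the members and -0.04 for all genes. Rpl29 had levels of 9.38, 9.89 and 10.64 in blood, against 7.22, 7.41 and 7.70 in cord (difference 2.48, SE 0.08, limma adjusted p = 2.2e-47). Rplp0 had 7.73, 8.63 and 9.45 in blood, against 5.28, 6.61 and 6.96 in cord (difference 2.09). Neither gene overlapped between the tissues. Rps24 (2.12), the ribosomal RNA-processing protein mutated in some families with Diamond-Blackfan anaemia, Rpl10a (1.96) and Rpl10 (1.94), which prepares the large subunit for joining, followed. The sizes depended on the normalization. After median centring Rpl29 was at 1.18, Rplp0 at 0.67 and Rpl10a at 1.05. Rps24 was at 1.03 without background correction and at 0.64 in the authors' normalized values. All of these still passed. Rplp0 also had a dimmer probe, detected on 2 blood and 5 cord arrays. It gave 0.35 and did not pass (limma adjusted p = 0.0566 over all probes).

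The 5 members lower in blood than in cord were led by Rps15a, of the small subunit. It had 4.83, 6.82 and 7.88 in blood, against 8.67, 9.03 and 9.41 in cord (difference -2.24, SE 0.17, limma adjusted p = 1.5e-21), with no overlap. In other settings it ran from -3.36 after median centring to -1.07 in the authors' normalized values. Rpl27a had 10.07, 10.62 and 10.89 in blood, against 11.30, 11.64 and 12.06 in cord (difference -1.08). A dimmer probe of Rpl27a went the other way, with 0.74 (SE 0.19, limma adjusted p = 0.00021 over all probes), so the direction for this gene rests on the probe chosen. Rpl22 (-0.35), Rpl21 (-0.34) and Rpl37 (-0.21) were closer. The sign of Rpl37 turned after median centring, where the median of all genes shifted to -0.68, where Rpl22 was at -1.46 and Rpl27a at -1.93. Rpl21 was at 0.0043 in the authors' normalized values, and its other probe gave -0.10 (limma adjusted p = 0.518 over all probes).

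Muscle against blood gave the opposite order. By limma 3 members were higher and 38 lower in wild type muscle, 93.2% of the members against 75.5% of all genes, with a median of -0.81. Rpl13a had 8.30, 8.60 and 8.89 in muscle, against 10.60, 10.91 and 11.23 in blood (difference -2.36, SE 0.09, limma adjusted p = 9.3e-42). Rps16 (-2.05), Rpl36a (-1.49) and Rps9 (-1.48) were the next lowest apart from Rps24. Rps24 was detected on no wild type muscle array of 100 days and on 2 of 8 at 70 days, and its measured difference was -2.35, or -0.59 in the authors' normalized values. Higher in muscle were Rpl3l, Rps27l (1.47, or 2.26 after median centring) and Rpl21 (0.45, limma adjusted p = 0.0034). Rpl21 did not pass in the authors' normalized values (0.09, limma adjusted p = 0.290) or with its other probe (0.04, limma adjusted p = 0.825 over all probes).

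Muscle and spinal cord differed in both directions. By limma 13 members were higher and 14 lower in wild type muscle, 61.4% of the members against 75.9% of all genes, and the median was 0.07. After median centring 16 passed, 9 higher and 7 lower. Rpl3l had 13.89, 14.18 and 14.33 in muscle, against 5.20, 6.37 and 11.999 in cord (difference 7.28, SE 0.35, limma adjusted p = 2.4e-34), a 155-fold excess in muscle. The 2 cord arrays with muscle transcripts supplied the highest cord levels, and the difference was 7.94 without the 6 arrays named above. Against blood, with 5.45, 7.51 and 8.56, the Rpl3l difference was 6.90, or 119-fold. These sizes depended on the processing. Over 8 alternative settings the Rpl3l difference ran from 5.90 to 7.94 against cord and from 5.94 to 7.92 against blood.

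Rps27l was the other member called above both other tissues in muscle. It had 12.11, 12.67 and 12.94 in muscle, against 10.35, 10.65 and 11.19 in cord (difference 1.95) and 10.51, 11.21 and 11.84 in blood. Rpl29 (1.44), Rplp0 (1.39) and Rpl10a (1.10) were also higher in muscle than in cord. Lower in muscle than in cord were Rps15a (-2.58), Rpl27a (-1.77), Rpl13a (-0.89), Rps21 (-0.85) and Rpl37 (-0.74). After median centring Rplp0 was at 0.57, Rpl29 at 0.77 and Rpl13a at -1.44, while Rps21 (-0.17) and Rpl37 (-0.05) no longer passed. Rps15a was at -1.21 in the authors' normalized values. The dimmer probe of Rpl27a gave -0.36 and did not pass (limma adjusted p = 0.0775 over all probes). That of Rplp0 gave 0.48 (limma adjusted p = 0.00999 over all probes).

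**Figure D5:**
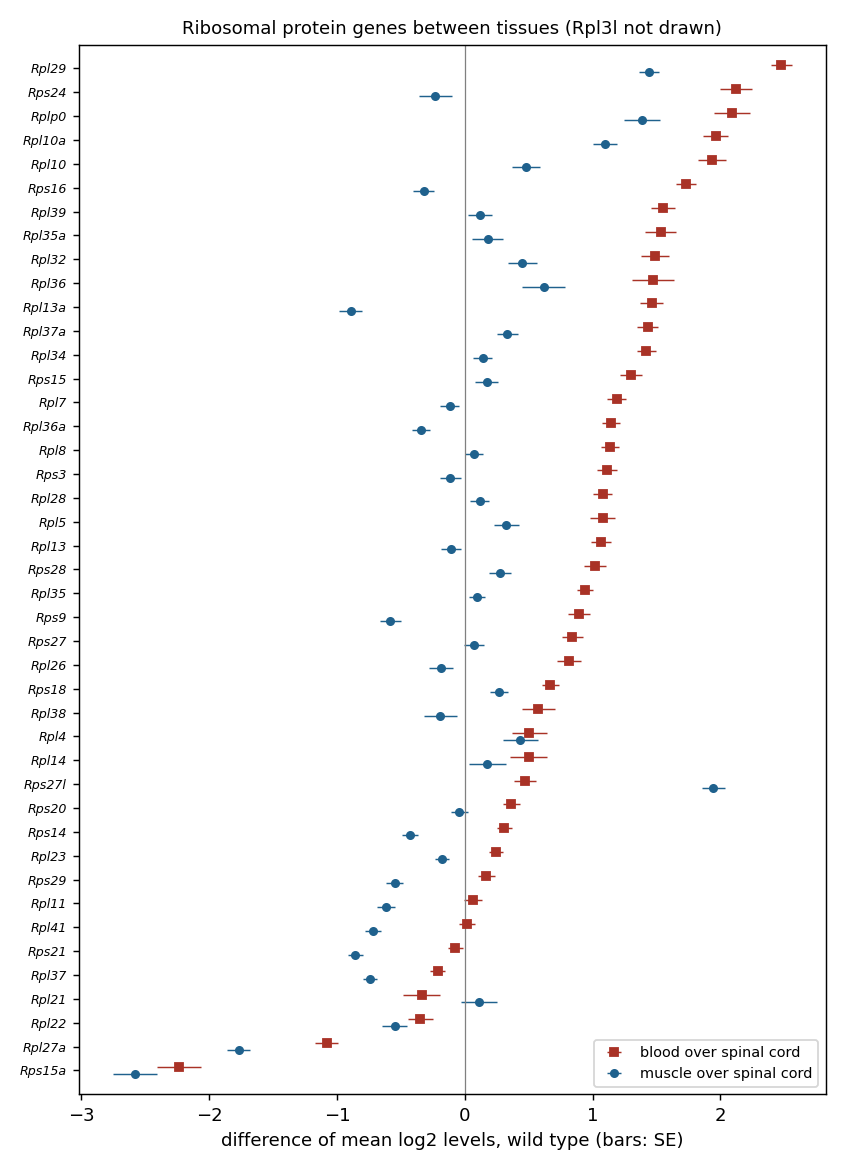
Log2 difference between wild type tissues for each member, with standard errors: blood over spinal cord and muscle over spinal cord; Rpl3l, at 7.28 in muscle over cord, is off the scale and not drawn. Most blood points lie above 0 up to 2.48 for Rpl29, while the muscle points spread on both sides of 0, and Rps15a and Rpl27a are below 0 in both.

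Ordered by mean wild type level, 36 of 44 members were highest in blood, 5 in cord and 3 in muscle. Blood, muscle and cord in falling order held for 20 members and blood, cord and muscle for 16. Neighbours in the order did not always differ: blood was called above both other tissues for 33 members, cord for 4 (Rps15a, Rpl27a, Rpl22 and Rpl37) and muscle for 2. These orders and calls were not counted over all genes, so they are not read as particular to the members. Of all genes 84.2% passed between blood and cord, 75.5% between muscle and blood and 75.9% between muscle and cord. By its dimmer probe Rpl27a was called higher in blood than in cord, so its place among the 4 holds for the brightest probe. For Rpl41, Rpl11, Rps21 and Rpl3l blood and cord did not pass as different. Blood and muscle did not for Rpl4, Rpl22 and Rps15a.

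The median spread within groups was lower for the members than for all genes, which were not matched to the members by level. The median SD within groups was 0.18 for the members and 0.33 for all genes in cord. In muscle these medians were 0.22 for the members and 0.28 for all genes, and in blood they were 0.27 and 0.32. In cord Rpl23, Rps21 and Rpl37 varied least, with SDs from 0.095 to 0.097 at mean levels of 13.52, 14.00 and 13.99. Rpl3l (1.498), Rplp0 (0.55) and Rpl14 (0.50) varied most, at mean levels of 7.19, 7.21 and 5.64. The dim arrays and those with muscle transcripts were included. In muscle the SD was lowest for Rpl8, Rps27 and Rps14 (0.15 each) and highest for Rpl36 (0.44), Rpl13a (0.39) and Rpl22 (0.37). In blood it was lowest for Rps14, Rpl23 and Rpl35 (0.15 each) and highest for Rpl36 (0.63), Rps15a (0.57) and Rpl38 (0.51).

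The remaining 5 members passed the filter in no tissue. Rpl17 and Rpl39l were detected on no array, Rps19 on 2 muscle arrays, Rpsa on 1 blood array, and Rpl36al on 5 cord and 5 muscle arrays. Rps24 was below the filter in muscle only, with detection on 6 arrays. These are properties of single probes and give no level of the gene.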

How the data were processed

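Per the file headers, the deposited table gave a non-normalized signal intensity and a detection p-value for 24613 probes on each of 92 arrays, and the sources used here do not name the software behind either. The authors also deposited normalized log2 values without a stated method, used as an alternative. Per the labels' protocols, RNA was isolated with RNeasy (tissues) or PAXgene (blood, then globin-depleted). The sources used here name no genome build. Left out were 7 lines with no probe name (0.00539% of the signal).

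Signals were background-corrected and quantile normalized within each tissue with neqc (offset 16; limma 3.58.1, R 4.3.3), and over all 92 arrays for tissue comparisons. Probes with a detection p-value under 0.05 on at least 7 arrays were tested, the brightest for each gene. One limma fit of the 4 groups of a tissue gave genotype, age and interaction contrasts, and one fit of the 12 groups the tissue contrasts. Calls were made at 0.05 after Benjamini-Hochberg adjustment of the p-values. The fit was tested on simulated data. Replicates differed (0 identical of 308 pairs), but the labels do not say what a replicate number shares, so p-values measure the spread between these samples. The number of arrays limits the precision.

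The members and the gene lists were chosen with earlier results of these data known. Named were all called members of a genotype comparison or, where none passed, the 3 with the smallest p (likewise for ages and interactions), the 5 highest and lowest called between tissues, up to 4 called genes of a list, the 3 most and least variable members, and a set of 14 with known special roles (Rpl3, Rpl3l, Rps27, Rps27l, Rpl22, Rplp0, Rplp1, Rplp2, Rpsa, Rpl13a, Rps6, Rps19, Rpl5 and Rpl11). Rpl23, Rpl27a, the members below 0 in muscle and the values of called members in other comparisons were added after their values were seen. Alternatives were no background correction, joint normalization, median centring, no filter, all probes in place of the brightest, fits of just the groups compared, array weights, the replicate number as a block, the authors' values and a trended variance, besides fits without doubted arrays. The denervation list, leaving out each array in turn, and Rplp0 without the dim arrays were added after seeing the data. A planned difference between Rpl3l and Rpl3 was not run. Promoters were searched in Python, figures drawn with matplotlib 3.10.9.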

Additional observations from a re-analysis of the deposited data

Results flagged for a closer look

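A lone array far from its group was found in 8 of 72 groups of values examined, where chance gives about 1 in 20. In G93A-SOD1 spinal cord at 100 days, replicate 8 had the lowest member mean, -0.12 (next array 0.06), and an Rpl3l level of 10.28 (next 6.75); it is one of the arrays with muscle transcripts. In the same group replicate 2 had an Rpl38 level of 9.32 (next 9.67). Both dim spinal cord arrays stood apart for Rplp0, with 4.97 in G93A-SOD1 at 70 days (next 6.93) and 5.68 in wild type at 100 days (next 7.23). Rpl41 was at 14.79 in replicate 6 of wild type cord at 100 days (next 14.53) and at 14.06 in replicate 3 of wild type muscle at 70 days (next 14.22). In wild type blood at 100 days replicate 7 had a member mean of -0.34 (next -0.03).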

How the results depend on the processing

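The number of members called in muscle at 100 days (4) moved under several settings. It was 0 after median centring, where all genes shifted to a median of 0.18 and 42 of 43 members were above 0, and 2 without the detection filter. It was 7 with only the groups compared, 10 with array weights (9 higher, 1 lower) and 7 with the replicate block (6 higher, 1 lower). Under the other 5 settings it was 4 to 6. Leaving out each array in turn gave 0 to 9. With array weights 1 member, Rpl29, passed between the ages in wild type muscle. After median centring 16 members passed between muscle and spinal cord. The adjusted p over 10 alternatives ranged from 0.0080 to 0.292 for Rpl41, 0.0064 to 0.139 for Rpl38, 0.0098 to 0.247 for Rpl36a, 0.0112 to 0.196 for Rplp0 and 0.0202 to 0.219 for Rpl3l in muscle at 100 days. Every other count of called members stayed within 1.5 times its value under each alternative run.

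Signs turned for Rpl37 between blood and cord (0.46), Rpl29 in blood at 70 days (0.22), and Rps9 in cord at 70 days (-0.31) and in the cord interaction (0.46), each after median centring, and for Rpl21 between blood and cord in the authors' values (0.0043). The cause was not tested.

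Replicate numbers were not used as pairs in the main fits. Deviations of same-numbered arrays correlated above 0.1 in 4 of 8 pairs in muscle at 70 days and 4 of 7 at 100 days. In cord 4 of 8 and 3 of 7 did. In blood 7 of 8 and 6 of 7 did, with median correlations of 0.24 and 0.25. What same-numbered blood arrays share is not known. The replicate block moved no other count of called members by over 1.5 times. Members near background, such as Rpl4, Rpl14 and Rps24, are limited by signal over background.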
